A study of Homo sapiens with 346 samples.

Results

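The 10 genes described here are 7 members of the S100 family (S100A4, S100A6, S100A10, S100A11, S100A14, S100A16 and S100P) and 3 annexins (ANXA1, ANXA2 and ANXA3). They were chosen by name, with earlier results of these data known. Counts of them set beside all genes therefore do not rest on a blind choice. All 10 are listed in both gene tables, which hold 31463 different genes together. The study made Smart-seq2 libraries of single cells of 2 human lines, HCT-116 and HepG2, either live or after 1 week in 80% methanol. HCT-116 was derived from a colorectal carcinoma, and HepG2 carries the name of a line from a liver tumour. Live cells were not exposed to methanol, and within an experiment live and fixed cells of a line shared a culture. HepG2 cells came from more than 1 experiment, which the labels do not separate. The tables hold 91 live and 92 fixed HCT-116 cells and 68 live and 83 fixed HepG2 cells.

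Values are TPM, estimated transcript abundance scaled for transcript length and to a fixed total for each cell. Levels of different genes are compared within a cell on that scaling. The paper reports that fixation affected longer and more GC-rich transcripts more in these libraries, and levels were not adjusted for this. Each line and treatment was taken as 1 sample and cells were not used as replicates. No test between groups could therefore be made, and the SDs given are over cells. Fixed cells were rehydrated, sorted and made into libraries only after storage, and only live cells were gated with a viability dye, so fixation, storage, gate and library preparation cannot be told apart. Total reads per cell had a median of 2.5 M (range 0.7 to 5.3 M) in live HCT-116 cells and 1.8 M (0.2 to 4.9 M) in fixed ones. In HepG2 the medians were 2.4 M (1.5 to 3.7 M) in live cells and 2 M (1 to 2.8 M) in fixed cells. The 2 tables were deposited separately, 1 for each line, which applies to every level set across the lines below.

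Of 17 hepatocyte markers, 0 passed 1 TPM in 50% or more of the HepG2-labelled cells, 8 are not listed, and SERPINA1, the most abundant, had a mean of 2.27 TPM in live cells. Of 9 luminal breast markers 6 did so, led by TFF1 with a mean of 2046 TPM in live cells. The line is therefore named by its label only. By the same measure 1 of 10 intestinal markers was present in HCT-116, with CDX2 highest at a mean of 7.47 TPM when live. The values of 1 live and 1 fixed HepG2 cell are equal for all genes, and 6 fixed HepG2 cells are very similar to each other, with a correlation above 0.95 in all 15 pairs. The highest correlation between other HepG2 cells was 0.942. These cells were kept, and results that change without them are given with both values.

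S100 proteins are small EF-hand proteins that bind calcium and then expose a surface for partner proteins, and annexins bind phospholipid membranes in a calcium-dependent way. Some members of the families pair directly. S100A10, also called p11, has lost calcium binding and joins ANXA2 in a tetramer at the plasma membrane that binds plasminogen and tissue plasminogen activator, while S100A11 is a known partner of ANXA1. Many S100 genes lie side by side on human chromosome 1 and are expressed in epithelia and in tumours derived from them.

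In the RefSeq annotation of GRCh38.p14 (the files come from a GRCh38 transcriptome), 16 S100 genes span 1.65 Mb of chromosome 1, at chr1:151982915-153634361. This block holds 6 of the 10 genes. S100A10 (chr1:151982915-151993859) and S100A11 (chr1:152032506-152037004) lie at one end. S100A6 (chr1:153534599-153535991), S100A4 (chr1:153543621-153545806), S100A16 (chr1:153606883-153613137) and S100A14 (chr1:153614255-153616325) lie towards the other. S100P (chr4:6693878-6697170) and ANXA3 (chr4:78551770-78610447) are on chromosome 4, ANXA1 (chr9:73151865-73170393) on chromosome 9 and ANXA2 (chr15:60347151-60397986) on chromosome 15. The annotated span of S100A4 overlaps that of S100A5, and Smart-seq2 does not mark the strand, so reads from the shared stretch cannot be told apart by strand.

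Promoter sequences are shown for the S100A10 and ANXA2 partners, and for S100A4, ANXA1 and S100P, the 3 genes that were near 0 in many or nearly all cells of 1 line. Each is the RefSeq (GRCh38.p14) stretch from 250 bases before to 50 bases after the gene start, written 5′ to 3′ on the strand of the gene. Capitals mark matches, on either strand, to a TATA box (TATAAA), a GC box (GGGCGG), an AP-1 motif (TGANTCA) or a CCAAT box (CCAAT).
S100A10 (chr1:151993810-151994109, minus strand): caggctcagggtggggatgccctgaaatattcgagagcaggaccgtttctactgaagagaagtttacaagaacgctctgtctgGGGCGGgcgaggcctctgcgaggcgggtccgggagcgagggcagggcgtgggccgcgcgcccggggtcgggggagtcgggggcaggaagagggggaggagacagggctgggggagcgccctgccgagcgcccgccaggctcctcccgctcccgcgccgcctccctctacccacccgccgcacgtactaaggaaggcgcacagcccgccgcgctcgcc
ANXA2 (chr15:60397937-60398236, minus strand): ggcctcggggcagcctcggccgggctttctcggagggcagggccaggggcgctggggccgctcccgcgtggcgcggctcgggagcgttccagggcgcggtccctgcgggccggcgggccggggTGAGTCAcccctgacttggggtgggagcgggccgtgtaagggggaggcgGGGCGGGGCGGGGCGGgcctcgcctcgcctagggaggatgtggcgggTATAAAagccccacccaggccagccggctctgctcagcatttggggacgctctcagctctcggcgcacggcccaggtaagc
S100A4 (chr1:153545757-153546056, minus strand): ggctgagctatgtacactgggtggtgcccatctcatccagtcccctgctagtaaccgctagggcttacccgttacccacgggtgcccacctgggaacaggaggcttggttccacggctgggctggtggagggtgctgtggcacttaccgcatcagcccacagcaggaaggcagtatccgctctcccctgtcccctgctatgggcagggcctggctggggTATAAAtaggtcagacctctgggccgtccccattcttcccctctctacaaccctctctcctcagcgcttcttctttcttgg
ANXA1 (chr9:73151615-73151914, plus strand): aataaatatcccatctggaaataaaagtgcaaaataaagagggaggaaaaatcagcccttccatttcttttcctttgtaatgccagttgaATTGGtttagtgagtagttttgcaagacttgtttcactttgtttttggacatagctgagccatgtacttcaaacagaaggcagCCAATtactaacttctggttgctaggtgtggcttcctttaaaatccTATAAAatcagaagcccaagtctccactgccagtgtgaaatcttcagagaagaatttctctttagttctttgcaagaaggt
S100P (chr4:6693628-6693927, plus strand): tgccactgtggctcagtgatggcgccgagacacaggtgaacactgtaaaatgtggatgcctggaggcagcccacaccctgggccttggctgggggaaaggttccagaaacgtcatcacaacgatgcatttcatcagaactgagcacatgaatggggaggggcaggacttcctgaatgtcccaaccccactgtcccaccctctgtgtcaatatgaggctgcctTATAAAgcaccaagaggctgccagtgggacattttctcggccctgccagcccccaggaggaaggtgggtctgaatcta

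Of 35116 RefSeq promoters of the same length, 11.5% hold the TATA box letters, 44.95% the GC box, 7.71% the AP-1 motif and 34.6% the CCAAT box. A TATAAA match lies 31 bases before the start in S100A4, ANXA1 and ANXA2 and 28 bases before it in S100P. The S100A10 window has no TATAAA match and 1 GC box, while ANXA2 has 3 GC boxes that overlap one another by a base and the AP-1 letters as TGAGTCA. ANXA1 has 2 CCAAT matches, 1 of them on the opposite strand. GC content ran from 37.7% in the ANXA1 window to 76% in that of ANXA2. The windows of both partners hold the GC box letters, and only that of ANXA2 holds the TATA box letters. A match describes the letters only.

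The largest differences among the 10 genes were between the lines. In live cells 3 genes (S100A10, S100A11 and S100P) had a mean at least 2-fold higher in HepG2 than in HCT-116, where 22% of the 12481 genes tested did. Another 5 (S100A4, S100A6, ANXA1, ANXA2 and ANXA3) were at least 2-fold lower, against 18.7% of all genes. In fixed cells the same 3 genes were higher and the same 5 lower, against 22% and 18% of the 12232 genes tested. Genes were tested if the mean of both group means was at least 1 TPM, a filter that S100P passed only through HepG2. S100A14 and S100A16 stayed under 2-fold by their means in both treatments. As a mean of log2(TPM + 1) they were past 2-fold lower in live HepG2 cells (-1.39 and -1.20). In fixed cells they were not (-0.22 and -0.73).

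**Figure D1:**
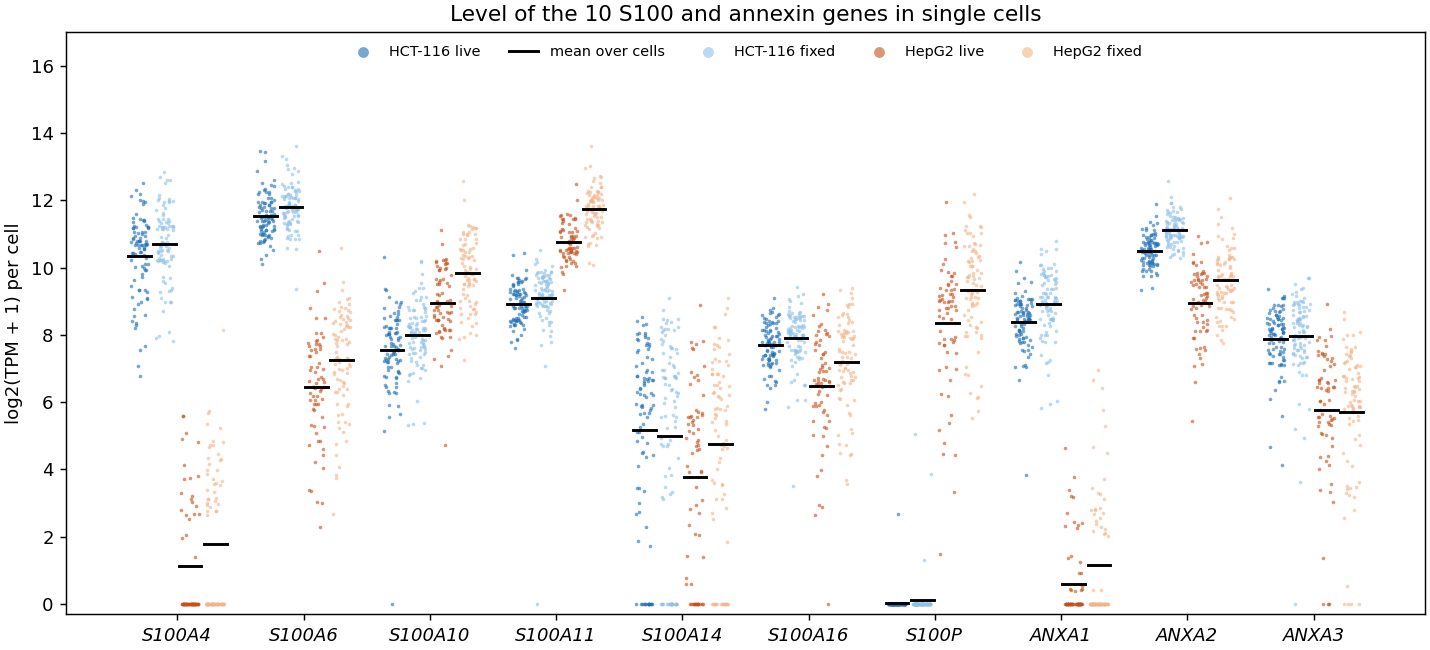
Each point is 1 cell and each black bar the mean of log2(TPM + 1) over the cells of a group, for the 10 genes (x axis) in the 4 groups. S100A4 and ANXA1 sit at 0 in most HepG2 cells, and S100P sits at 0 in all but 4 HCT-116 cells.

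S100P, which binds ezrin inside the cell and the receptor AGER outside it, was the clearest case. In live HepG2 cells its level ran from 1.81 to 3926 TPM with a median of 459 TPM, and in fixed HepG2 cells from 45.6 to 4656 TPM with a median of 747 TPM. It was detected, with a TPM above 0, in every HepG2 cell of both treatments. In HCT-116, 1 of 91 live cells (1.10%, exact 95% interval 0.0278 to 5.97) and 3 of 92 fixed cells (3.26%, 0.678 to 9.23) had any, with highest values of 5.39 and 32.5 TPM. These are Clopper-Pearson intervals, as are those of the other shares above 0, and they cover counting error only. The fixed groups did not overlap, and the single positive live HCT-116 cell fell inside the HepG2 range. The HCT-116 levels rest on 2 and 11 estimated reads in all, so no fold is given.

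S100A4, a metastasis-associated protein that binds non-muscle myosin, showed the reverse pattern. Live HCT-116 cells ran from 108.3 to 5817 TPM with a median of 1633 TPM, and fixed ones from 226 to 7352 TPM with a median of 1678 TPM. In HepG2 the median was 0 in both treatments and the highest cell had 47.3 TPM when live and 281 TPM when fixed. No live HepG2 cell reached the lowest live HCT-116 cell, whereas the highest fixed HepG2 cell lay above the lowest fixed HCT-116 cell. The means of 1711 and 4.56 TPM in live cells differed 375-fold. In fixed cells, means of 2127 and 10.6 TPM differed 200-fold. The log2 ratios of these means were -8.55 (live) and -7.65 (fixed). As a mean of log2(TPM + 1), the lines differed by -9.24 (live) and -8.93 (fixed). S100A4 was detected in 22 of 68 live HepG2 cells (32.4%, 21.5 to 44.8) and 37 of 83 fixed ones (44.6%, 33.7 to 55.9), and in every HCT-116 cell.

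ANXA1, an annexin also known as lipocortin whose N-terminal peptides act on formyl peptide receptors, followed S100A4. In live HCT-116 cells it ran from 13.22 to 1144 TPM (median 357 TPM) and in fixed ones from 56.3 to 1774 TPM (median 518 TPM). Its median in HepG2 was 0, and its highest value was 23.8 TPM when live and 122.2 TPM when fixed, so the ranges of the lines overlapped in both treatments. The means differed 266-fold in live cells (378 against 1.42 TPM) and 87.1-fold in fixed cells (588 against 6.75 TPM). Their log2 ratios were -8.06 (live) and -6.44 (fixed). As a mean of log2(TPM + 1), however, the lines differed by -7.78 in live and in fixed cells. ANXA1 was detected in 22 of 68 live HepG2 cells (32.4%, 21.5 to 44.8) and 29 of 83 fixed ones (34.9%, 24.8 to 46.2).

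Of the HepG2 cells, 7 of 68 live and 13 of 83 fixed ones had both S100A4 and ANXA1. Across cells their levels had a correlation of 0.00 (live) and 0.03 (fixed) (68 and 83 cells that share a line and a treatment and come from more than 1 experiment). The 5 highest cells held 59.2% of the summed S100A4 level of live HepG2 cells and 52.1% of that of fixed cells. For ANXA1 the share was 64.3% in live and 70.9% in fixed cells. A few cells therefore set most of the HepG2 means of both genes.

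S100A6, or calcyclin, which binds CACYBP and SUGT1, was the most abundant of the genes in HCT-116, where its mean ranked 14 of 28806 genes in live and 15 in fixed cells. Its level ran from 1105 to 11426 TPM (median 2821 TPM) in live and from 662 to 12595 TPM (median 3601 TPM) in fixed HCT-116 cells. In HepG2 it ran from 3.88 to 1448 TPM (median 90.2 TPM) and from 5.33 to 1544 TPM (median 162.5 TPM). Every cell of every group had S100A6, but HepG2 means were lower, 21.8-fold in live and 17.3-fold in fixed cells, with some overlap of the ranges.

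S100A11 led the genes in HepG2, at rank 29 of 29551 genes in live and rank 15 in fixed cells. In live cells it ran from 641 to 5715 TPM (median 1626 TPM) in HepG2 and from 195 to 1379 TPM (median 484 TPM) in HCT-116. In fixed cells the ranges were 1088 to 12631 TPM (median 3610 TPM) and 0 to 1467 TPM (median 591 TPM). HepG2 means were 3.59-fold higher in live and 5.96-fold higher in fixed cells, and the ranges overlapped in both.

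S100A10 was also higher in HepG2, and its partner ANXA2 was lower. S100A10 in live cells ran from 25.6 to 2238 TPM (median 459 TPM) in HepG2 and from 0 to 1273 TPM (median 199 TPM) in HCT-116. ANXA2 ran from 42.5 to 1972 TPM (median 555 TPM) in live HepG2 cells and from 644 to 3834 TPM (median 1453 TPM) in live HCT-116 cells. The means of S100A10 were 2.57-fold higher in live and 3.80-fold higher in fixed HepG2 cells, while those of ANXA2 were 2.48-fold and 2.42-fold lower. In fixed cells S100A10 ran from 151.1 to 6138 TPM (median 937 TPM) in HepG2 and from 39.3 to 1175 TPM (median 271 TPM) in HCT-116. ANXA2 ran from 216 to 4260 TPM (median 801 TPM) and from 1237 to 6081 TPM (median 2210 TPM). All these ranges overlapped between the lines.

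ANXA3, a further membrane-binding annexin, was 3.01-fold lower in live and 3.45-fold lower in fixed HepG2 cells, with means of 91.2 against 274 TPM and 91.4 against 315 TPM. Its median was 65.4 TPM in live HepG2 cells (0 to 479 TPM) and 267 TPM in live HCT-116 cells (16.5 to 656 TPM). In fixed cells the medians were 74.3 TPM (0 to 407 TPM) and 301 TPM (0 to 834 TPM), with overlap in both treatments. S100A16, which is widely expressed in epithelial lines, was missing from 1 live HepG2 cell only. Its means were 140 TPM in live HepG2 and 227 TPM in live HCT-116 cells, 1.62-fold apart, and 203 and 274 TPM in fixed cells, 1.35-fold apart.

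S100A14, an epithelial S100 gene, was missing from some cells of every group. It was found in 77 of 91 live (84.6%, 75.5 to 91.3) and 71 of 92 fixed (77.2%, 67.2 to 85.3) HCT-116 cells. In HepG2 it was found in 53 of 68 live (77.9%, 66.2 to 87.1) and 68 of 83 fixed cells (81.9%, 71.95 to 89.5). Those 4 shares were not tested against each other. Its median level was 60.3 TPM in live (0 to 367 TPM) and 66.4 TPM in fixed HCT-116 cells (0 to 542 TPM), and 22.98 TPM in live (0 to 470 TPM) and 44.8 TPM in fixed HepG2 cells (0 to 546 TPM). The groups overlapped over nearly their whole ranges.

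The order of the genes within a cell differed between the lines. In live HCT-116 cells S100A6 came above ANXA2 in 89 of 91 cells, with a mean within-cell difference of 1.02 ± 0.73 (SD) in log2(TPM + 1). ANXA2 and S100A4 could not be separated, since their difference of 0.15 was smaller than its SD of 1.27. S100A4 stood above S100A11 by 1.43 ± 1.20, and from S100A11 down through ANXA1, ANXA3, S100A16, S100A10 and S100A14 no neighbours were separated. By the mean of log2(TPM + 1), fixed HCT-116 cells kept the leading 5 in the same order, but there S100A6 and ANXA2 were not separated (0.69 ± 0.71). By mean TPM, S100A4 ranked above ANXA2 in live HCT-116 cells (50 and 64 of 28806 genes) and below it in fixed ones (56 and 45). These orders rest on the scaling for length. Without it, mean estimated reads on a fixed scale (CPM) were 953 for S100A6 and 1172 for ANXA2 in live HCT-116 cells, the reverse order. In live HepG2 cells S100A11 stayed above ANXA2, at 615 against 530.

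In HepG2, S100A11 stood above the next gene in 66 of 68 live cells, by 1.81 ± 1.02 over ANXA2, and in 83 of 83 fixed cells, by 1.89 ± 0.78 over S100A10. Below it ANXA2, S100A10 and S100P followed without separation, and S100A16 with S100A6 formed the next pair, whose members were again not separated. In fixed HepG2 cells S100P stood above S100A6 by 2.11 ± 1.76, and S100A14 above S100A4 by 2.99 ± 2.91. S100A4 and ANXA1 came at the bottom. Together the 10 genes took 0.827% ± 0.292 (SD) of all TPM of live HCT-116 cells and 1.07% ± 0.355 of that of fixed ones. Their share in HepG2 was 0.412% ± 0.173 in live and 0.752% ± 0.342 in fixed cells.

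Along the chromosome 1 block 11 genes were tested between the lines, in live and in fixed cells. In both, 7 had higher means in HCT-116 (S100A6, S100A5, S100A4, S100A3, S100A2, S100A16 and S100A14) and 4 in HepG2 (S100A10, S100A11, S100A9 and S100A13). Over all genes 52.6% (live) and 52.5% (fixed) were higher in HepG2, and nothing is read from the order of the genes. S100A9 passed the filter only through HepG2, and S100A3, S100A5 and, in live cells, S100A2 only through HCT-116. The filter fixed these directions, so nothing is read from the count either. In live cells S100A2 had a mean of 18.9 TPM in HCT-116 and 0.862 TPM in HepG2. S100A3 had 10.4 TPM and S100A5 3.92 TPM in HCT-116, and both were detected in 0 of 68 live HepG2 cells. A count of 0 of 68 has an exact (Clopper-Pearson) upper bound of 5.28%. The limit of 3 cells used beside counts of 0, here 4.41%, lies below that bound. S100A13 had means of 426 TPM in HepG2 and 147.7 TPM in HCT-116 when live (2.88-fold), and 534 and 170 TPM when fixed (3.14-fold).

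**Figure D2:**
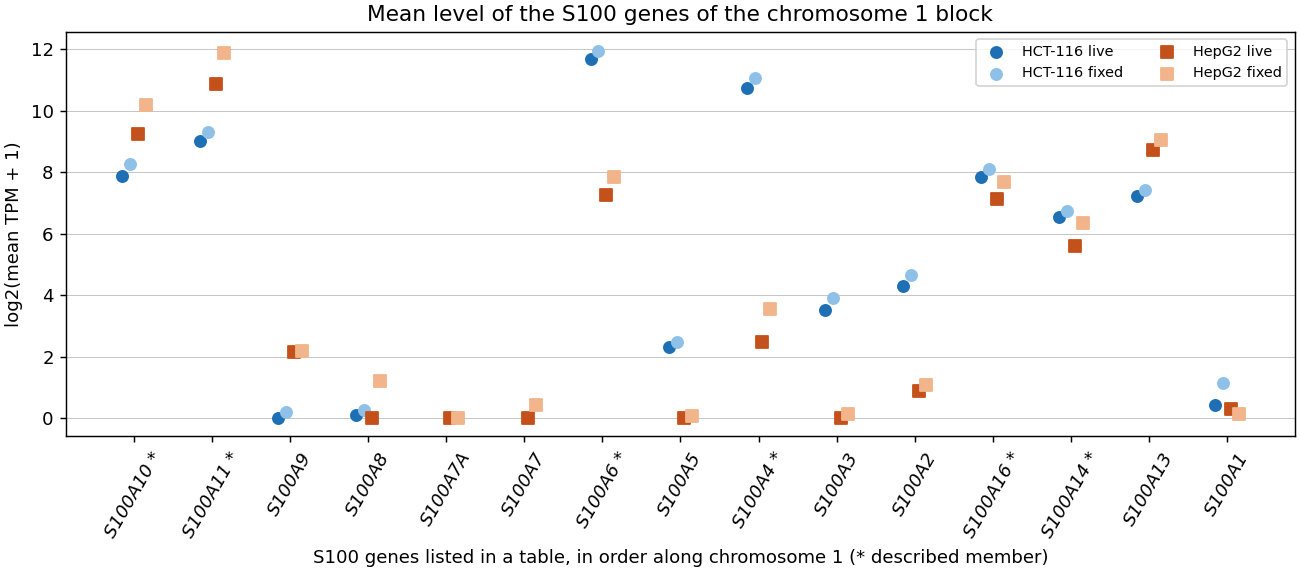
Mean level of each S100 gene of the chromosome 1 block that is listed in a table, as log2(mean TPM + 1), in order along the chromosome, in the 4 groups. Of the 11 tested genes, 7 are higher in HCT-116 (circles) and 4, S100A10, S100A11, S100A9 and S100A13, are higher in HepG2 (squares). The filter on low values fixed the direction of S100A3, S100A5, S100A9 and, in live cells, S100A2.

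Among the 13 other S100 genes, 5 passed the filter between live lines, of which 2 (S100A9 and S100A13) were at least 2-fold higher and 3 (S100A2, S100A3 and S100A5) at least 2-fold lower in HepG2. The count was the same in fixed cells, and 22% of all genes were higher and 18.7% lower in live cells. As said above, the filter fixed a difference for S100A9, S100A3 and S100A5 in both treatments and for S100A2 in live cells. Nothing is read from this count. S100A1 (at most 1.23 TPM, from 8 fixed HCT-116 cells) and S100A8 (at most 1.30 TPM, from 6 fixed HepG2 cells) were under the filter. The highest of these cells had 91.7 TPM of S100A1 and 51.04 TPM of S100A8. S100A9, a subunit of calprotectin in neutrophils, had a mean of 3.43 TPM in live HepG2 cells, from 16 of 68 cells. The highest of them had 88.6 TPM. Of 10 other annexins, 7 passed the filter in live cells, with 1 higher and 2 lower in HepG2, and in fixed cells 8 passed, with 2 higher and 2 lower. Against the 22% and 18.7% (live) and 22% and 18% (fixed) of all genes, these counts are near the background. ANXA9 was the higher one in live cells, at 115.5 TPM in HepG2 against 1.27 TPM in HCT-116, and it was detected in all 68 live HepG2 cells and in 21 of 91 live HCT-116 cells. ANXA6 (8.26 against 24.5 TPM) and ANXA10 (0.342 against 13.8 TPM) were the lower ones, ANXA10 passing only through HCT-116. ANXA8, at 2.06 against 0.172 TPM, was the other higher one in fixed cells and passed only through HepG2. ANXA5, which binds phosphatidylserine, was the most abundant other annexin in all 4 groups and differed less than 2-fold between the lines, with live means of 170 TPM in HepG2 and 199 TPM in HCT-116. ANXA4 (37.2 and 32.8 TPM) and ANXA7 (58.7 and 60.96 TPM) also differed less than 2-fold.

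EZR, the membrane-cytoskeleton linker that S100P binds, was 10.2-fold lower in live HepG2 cells (65.6 against 670 TPM) and 13.7-fold lower in fixed ones (44.5 against 608 TPM). EZR was lower in the line where S100P was higher, but it was detected in every cell of both lines. From only 2 lines, no relation between the genes is read. Of 8 partners, 1 was at least 2-fold higher (PDCD6, which binds ANXA7 and ANXA11) and 2 at least 2-fold lower (EZR and SUGT1, a partner of S100A6) in live HepG2 cells. In fixed cells, 1 was higher and 1 lower. Over all genes 22% were higher and 18.7% lower in live cells, and 22% and 18% in fixed cells, so the partners' counts lie near or below the background. MYH9, the myosin heavy chain that S100A4 binds, had means of 17.1 and 17.2 TPM in live HepG2 and HCT-116 cells. CACYBP, the calcyclin-binding protein, had 151.5 and 170.9 TPM. AHNAK, which binds the S100A10 and ANXA2 complex, had 11.2 and 11.5 TPM, SRI, which binds ANXA7, had 167.4 and 99.9 TPM, and HLTF had 9.90 and 15.3 TPM.

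Of 4 genes of the plasminogen system, in which the S100A10 and ANXA2 tetramer acts, 3 had higher means in HCT-116 and PLG, plasminogen itself, was near 0 in both lines. PLAU, the urokinase gene, had a mean of 115.6 TPM in live HCT-116 and 1.30 TPM in live HepG2 cells. The latter came from 13 of 68 cells, of which the highest had 38.8 TPM. The urokinase receptor PLAUR had means of 68.9 TPM in live HCT-116 and 2.997 TPM in live HepG2 cells. PLAT, tissue plasminogen activator, had 5.26 TPM in HCT-116 and was detected in 0 of 68 live HepG2 cells (limit of 3 cells, 4.41%, exact upper bound 5.28%). All 3 were at least 2-fold lower in HepG2, in live and in fixed cells, beside 18.7% (live) and 18% (fixed) of all genes, and PLAT passed the filter only through HCT-116. PLG was under the filter, with live means of 0.258 TPM in HepG2 and 0.0634 TPM in HCT-116. The receptors were near 0 throughout: AGER had means from 0.380 to 0.729 TPM over the 4 groups, and FPR1 and FPR2 stayed under 1 TPM in HCT-116 and are not listed for HepG2.

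Between fixed and live cells the differences were smaller. In HCT-116, 0 of 9 genes tested reached 2-fold in either direction, against 2.99% of 11813 genes that were at least 2-fold higher in fixed cells and 8.84% that were lower. S100P was under the filter. All 9 had higher means in fixed cells, as 61.3% of all genes did, and among genes with a mean of at least 10 TPM the share was 72.7%. The median log2 ratio was 0.27 over the 9 genes and 0.17 over all genes. ANXA1 (1.55-fold, from 378 ± 181 to 588 ± 343 TPM) and ANXA2 (1.53-fold, from 1528 ± 509 to 2332 ± 756 TPM) were highest. The other 7 lay between 1.15-fold and 1.31-fold. As a mean of log2(TPM + 1), ANXA2 differed by 0.62, more than the SD over cells of 0.44, and the other 8 differed by less than theirs. On that scale S100A14 was lower in fixed cells, by -0.17. Differences are set against their SD for the deposited TPM only, which the ribosomal share described below also moves. The share of all genes past their SD is not given, so nothing is read from this count.

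In HepG2 3 of the 10 genes were at least 2-fold higher in fixed cells, against 4.89% of 12486 genes, and 0 were lower, against 9.76%. They were S100A4 (2.33-fold), S100A11 (2.01-fold) and ANXA1 (4.75-fold). S100A11 was under 2-fold when cells were scaled by the median ratio (1.65-fold) and with ribosomal RNA left out (1.77-fold). Of the 10 genes, 10 had higher means when fixed, as 59.9% of all genes did and 70.9% of those at 10 TPM or above. Their median log2 ratio was 0.77, beside 0.15 over all genes. S100A11 went from 1877 ± 820 to 3764 ± 1757 TPM, with a log2 ratio of 1.00 at the limit, and S100A10 from 610 ± 403 to 1180 ± 904 TPM (1.93-fold), just under it. Without the 6 very similar fixed cells S100A11 had a log2 ratio of 0.98 and 2 genes remained at 2-fold. ANXA3 had nearly the same mean in both treatments (91.2 and 91.4 TPM), and was lower by -0.04 in fixed cells as a mean of log2(TPM + 1). On that scale S100A11 differed by 0.98, more than its SD over cells of 0.59, and the other 9 genes differed by less than theirs. Here too the share of all genes past their SD is not given, and nothing is read from this count.

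S100A4 and ANXA1 in HepG2 were called on means that rest on few cells. With cells paired on total reads (50 pairs), S100A4 had a log2 ratio of 0.27 in place of 1.22, whereas ANXA1 had 2.43. As a mean of log2(TPM + 1), ANXA1 differed by 0.54 between fixed and live cells. Leaving out the 5 highest cells of each group, the ANXA1 mean was 0.548 TPM (live) and 2.09 TPM (fixed), and the S100A4 mean 2.01 and 5.41 TPM.

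The scaling of the cells bears on these directions. Live HCT-116 cells had 25.6% of all TPM in ribosomal RNA and fixed ones 7.78%, beside 5.52% and 2.33% in HepG2, and a lower ribosomal share raises the TPM of every other gene. With ribosomal RNA left out, the median of all genes moved to -0.16 in HCT-116 and -0.04 in HepG2. In HCT-116, 4 of the 9 genes were then higher and 5 lower in fixed cells, and 35.5% of all genes were higher. ANXA1 (log2 ratio 0.32) and ANXA2 (0.30) remained the highest, and the lowest was ANXA3 at -0.10. In HepG2, 9 of 10 were then higher, beside 47.5% of all genes. The median of the 10 genes was 0.61, and ANXA3 was lower at -0.17. For S100A11 this setting raised the HepG2 means from 1877 to 2283 TPM (live) and from 3764 to 4042 TPM (fixed). Such rises are larger than ribosomal shares of 5.52% and 2.33% can give, and the cause of the remainder was not tested. This limit applies to every HepG2 value given with ribosomal RNA left out. When cells were scaled by the median ratio over widely detected genes, 9 of 9 were higher in HCT-116 (median 0.13) and 9 of 10 in HepG2 (median 0.52). Over all genes 50.7% (HCT-116) and 46.9% (HepG2) were then higher, with medians of 0.01 and -0.04.

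**Figure D3:**
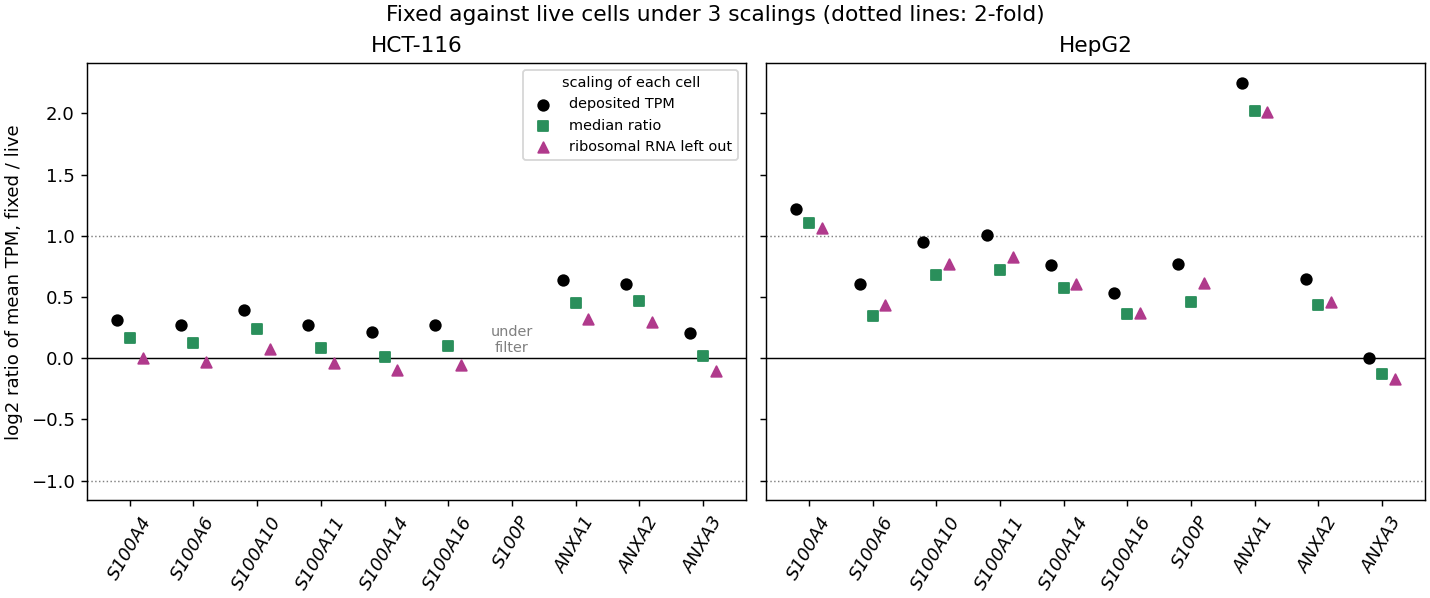
log2 ratio of mean TPM in fixed over live cells for each gene in HCT-116 and HepG2, with the deposited TPM, with cells scaled by the median ratio, and with ribosomal RNA left out. The dotted lines mark 2-fold. ANXA1 and ANXA2 stay above 0 in both lines under all 3 scalings, and ANXA3 in HepG2 lies at or below 0.

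Fixed cells had fewer genes detected, with medians of 10359 against 12031 in HCT-116 and 12293 against 13887 in HepG2. In HCT-116, 0 of 10 genes changed their share of cells by 10 percentage points or more, while 0.457% of genes tested gained and 32.6% lost at least that much. In HepG2 1 of 10 did, S100A4, whose share was 12.2 points higher in fixed cells, beside 2.51% of genes that gained and 23.6% that lost. The intervals of its shares, 21.5 to 44.8% and 33.7 to 55.9%, cover counting error only, and the difference was not tested. The share of S100A14 fell by 7.44 points in HCT-116 and was 3.99 points higher in fixed HepG2 cells. ANXA1 was 2.59 points higher in HepG2 and S100P 2.16 points higher in HCT-116. The remaining genes differed by less, and most of them were found in all or nearly all cells. The count in HepG2 depended on the limit of detection. Counting cells above 1 TPM, 2 of 10 genes were at least 10 points higher in fixed cells, S100A4 and ANXA1 (32.5% against 20.6%), beside 6.89% of all genes that gained and 22.6% that lost. Above 5 TPM, 3 of 10 were, beside 12.8% that gained and 16.2% that lost: S100A4 (44.6% against 26.5%), ANXA1 (21.7% against 8.82%) and S100A14 (79.5% against 66.2%). In HCT-116 the count was 0 at both limits, beside 2.14% that gained and 32.4% that lost above 1 TPM, and 7.67% and 18.3% above 5 TPM.

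Of 7 other annexins tested in HepG2, 1 was at least 2-fold higher and 1 at least 2-fold lower in fixed cells, beside 4.89% and 9.76% of all genes, and nothing is read from so few. ANXA6, a large annexin of the plasma membrane and endosomes, was 3.36-fold lower in fixed cells (2.46 against 8.26 TPM), and its share of cells was 38.6% in fixed against 77.9% in live cells. It was also lower under the other scalings, 3.42-fold and 3.77-fold. In HCT-116 it had 18.002 TPM in fixed and 24.5 TPM in live cells. ANXA8 was higher in fixed HepG2 cells (2.06 against 0.151 TPM), detected in 27 of 83 and 8 of 68 cells, and its copy ANXA8L1 may share reads with it. It passed the filter only through fixed cells. Of 7 other annexins tested, 0 passed 2-fold in HCT-116, where 2.99% of all genes were higher and 8.84% lower. Of 8 partners, 0 passed 2-fold in either line, beside these shares in HCT-116 and 4.89% and 9.76% in HepG2. Of 3 plasminogen genes tested in HCT-116, PLAT had a lower mean in fixed cells, past 2-fold (2.57 against 5.26 TPM). Without 1 live cell at 143.5 TPM, left out after its value was seen, the live mean was 3.72 TPM and 1.45-fold the fixed one. PLAT was detected in 30 of 92 fixed and 54 of 91 live cells (32.6% and 59.3%), with medians of 0 and 2.41 TPM.

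S100A10 and ANXA2 encode subunits of one complex, and their level relative to each other differed between the lines. The within-cell log2 ratio of S100A10 to ANXA2, with a pseudocount of 1, was -2.97 ± 1.30 (SD, 91 cells) in live and -3.11 ± 0.93 (92 cells) in fixed HCT-116 cells. It was -0.01 ± 1.06 (68 cells) in live and 0.23 ± 0.81 (83 cells) in fixed HepG2 cells. S100A10 was above ANXA2 in 1 of 91 live and 0 of 92 fixed HCT-116 cells (limit of 3 cells 3.26%, exact upper bound 3.93%). In HepG2 it was above in 35 of 68 live (51.5%) and 54 of 83 fixed cells (65.1%). In both lines the live and fixed means differed by less than the SD over cells. With the 3 ANXA2 pseudogenes added to ANXA2, the means were -2.97, -3.11, -0.01 and 0.23. The most abundant pseudogene, ANXA2P2, had at most a mean of 0.546 TPM.

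Across cells, the levels of the partners went together in HepG2 and much less so in HCT-116. The Pearson correlation of ln(TPM + 1) was 0.47 in live and 0.65 in fixed HepG2 cells, over 68 and 83 cells. In HCT-116 it was -0.01 over 91 live cells and 0.21 over 92 fixed cells. These are descriptions over cells that share a line, a treatment and a range of depth, and the difference between the lines was not tested. The HepG2 values pool cells of more than 1 experiment and the HCT-116 values come from 1, and the part of a difference between HepG2 experiments was not tested, since the labels do not separate them. The live HCT-116 value depends on 1 cell in which S100A10 was listed at 0, and was 0.20 without it. Given total reads and the number of genes detected, the correlations were 0.49 and 0.66 in live and fixed HepG2 cells, and -0.00318 and 0.19 in HCT-116. Without the 6 very similar cells the fixed HepG2 value was 0.64.

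**Figure D4:**
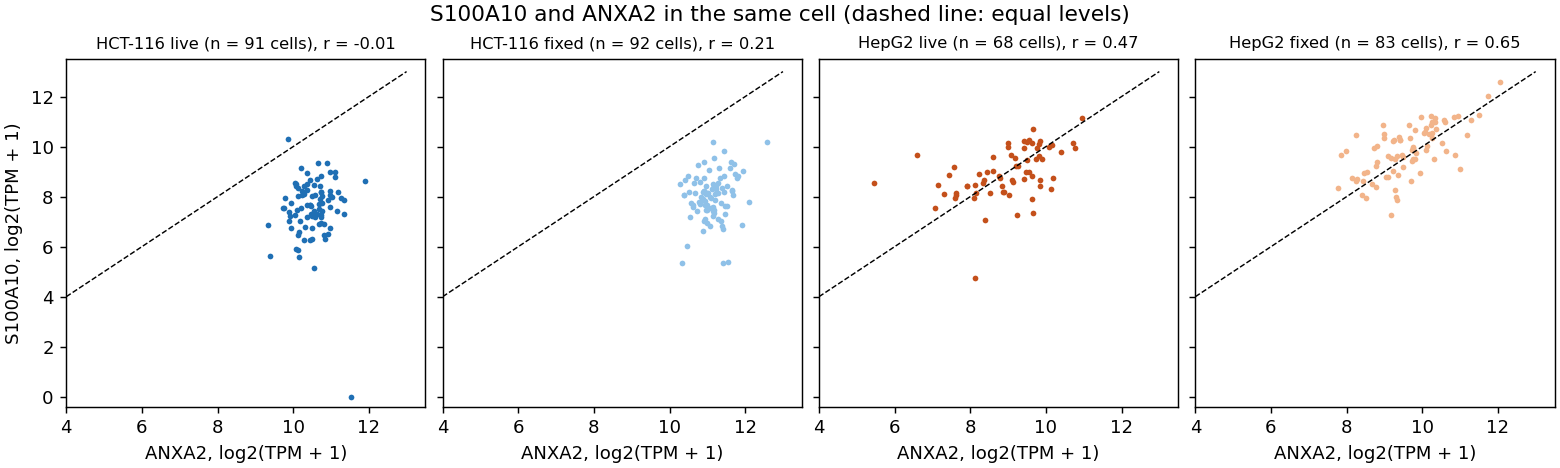
S100A10 against ANXA2, both as log2(TPM + 1), with 1 point for each cell and 1 panel for each group, and Pearson's r above the panel. HCT-116 cells lie below the dashed line of equal levels, except for 1 live cell, while HepG2 cells lie around it and rise along it.

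Among 8944 genes, those found in 50% or more of the cells of every group, ANXA2 ranked 1 in its correlation with S100A10 in fixed HepG2 cells and 8 in live ones. In fixed HCT-116 cells it ranked 611 and in live HCT-116 cells 6227, the latter with the cell at 0 included. In the other direction, S100A10 ranked 1 among the correlations with ANXA2 in fixed and 58 in live HepG2 cells, and 248 in fixed and 3812 in live HCT-116 cells. The median correlation of S100A10 with all these genes lay between 0.04 and 0.07 in the 4 groups. By the mean correlation over the 4 groups, the genes most like S100A10 were ACTB, ANXA3, TMSB10, S100A11 and ACTG1, with values from 0.35 to 0.39, and ANXA2 came in position 7 at 0.33. ACTB and ACTG1 encode cytoskeletal actins, and TMSB10 encodes a thymosin that binds actin monomers. Those most like ANXA2 were ATP6V0E1, INPP4B, SMAD3, RHOC and BNIP3L, from 0.33 to 0.37, with S100A10 in position 6. Both positions rest on the live HCT-116 cell that held S100A10 at 0. Without it, a choice made after seeing the data, the mean correlation was 0.38 and each gene stood in position 1 for the other. In live HCT-116 cells ANXA2 then ranked 794 for S100A10, and S100A10 ranked 325 for ANXA2. The other 4 genes nearest to S100A10 were then S100A11, ANXA3, ACTB and KRT18.

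Other pairs of the 10 genes also went together. S100A4 and S100A6, which lie on either side of S100A5, had correlations of 0.45 (live) and 0.48 (fixed) for HCT-116, and 0.41 (live) and 0.36 (fixed) for HepG2. S100A14 and S100A16, which lie next to each other, had 0.39, 0.32, 0.47 and 0.51 in the same order. S100A10 and S100A11 had 0.51 and 0.65 in HepG2 but 0.15 and 0.14 in HCT-116. S100A11 and ANXA2 had 0.32 (live) and 0.58 (fixed) in HepG2, and -0.17 (live) and -0.0085 (fixed) in HCT-116. The pair S100A11 and ANXA1, known as partners, had 0.24 and 0.31 in HCT-116, where ANXA1 was present in all cells. The same pair had 0.29 (live) and 0.37 (fixed) in HepG2, where ANXA1 was at 0 in most cells. In fixed HCT-116 cells S100A11 and ANXA3 had a Pearson correlation of 0.65 but a Spearman correlation of 0.27, and both were listed at 0 in 1 and the same cell.

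**Figure D5:**
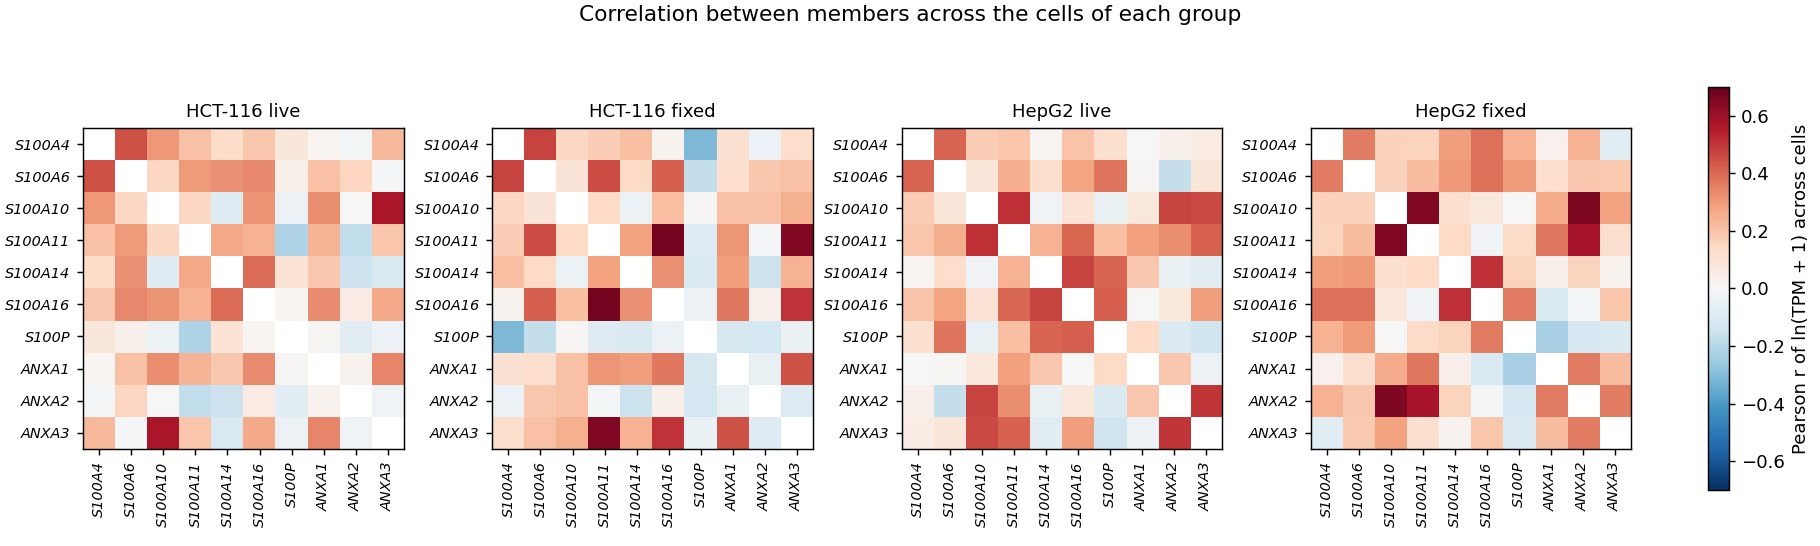
Pearson correlation of ln(TPM + 1) between each pair of the 10 genes across the cells of each group, from blue (negative) to red (positive). S100A10, S100A11 and ANXA2 form a red patch in HepG2 that is pale in HCT-116, and the pair S100A4 and S100A6 is red in all 4 groups.

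ANXA2 had the lowest spread over cells of the 10 genes in HCT-116. Live HCT-116 cells had a coefficient of variation of 0.333 for ANXA2 and fixed ones of 0.324, below the medians of 0.395 and 0.453 over all genes with a mean of at least 50 TPM. In HepG2 the values were 0.641 and 0.731, above the medians of 0.420 and 0.416. Of those of the 10 genes that had a mean of at least 50 TPM in a group, S100A14 varied most in HCT-116 (1.02 and 1.12), S100A6 most in live HepG2 (1.38) and S100A14 most in fixed HepG2 (1.30). In live HepG2 S100A14 had a higher value, 1.64, but its mean of 47.2 TPM lay just under that limit. S100A11 stayed near the median in every group, from 0.391 to 0.467.

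The transcript tables, in CPM (estimated reads over all reads of a cell, on a fixed scale), list more than 1 transcript for 6 of the 10 genes. For S100A16, transcript NM_080388 took 88.4% (live) and 87.9% (fixed) of the gene's mean CPM for HCT-116, but 60.8% and 71.7% for HepG2. Transcript NM_001317008 took 2.14% (live) and 2.20% (fixed) for HCT-116, but 22.4% (live) and 18.01% (fixed) for HepG2. For S100A6 the main transcript, NM_014624, took between 60.4% and 63.6% in the 4 groups, and for ANXA2 the main transcript, NM_004039, between 75.97% and 82.1%. These shares are estimates of the quantification, which divides reads shared by transcripts. S100A10, S100A11, S100P and ANXA3 have 1 listed transcript each.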

How the data were processed

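Values of single Smart-seq2 cells were taken from the deposited gene tables in TPM, which the authors computed from kallisto (version 0.46.0 in the submitters' processing notes), and from deposited transcript tables in CPM, used for total reads, estimated reads and transcript shares. Of 346 labelled cells, 12 had no column and were not used here. Columns were assigned to groups only, and each line and treatment was treated as 1 sample, although HepG2 cells came from more than 1 experiment. Ratios are of group means, for genes whose 2 group means averaged at least 1 TPM, and a call is a 2-fold difference. A gene was detected above 0 TPM, with 95% Clopper-Pearson intervals for shares. Calculations used pandas 2.3.3, scipy 1.17.1, numpy 2.4.6 and matplotlib 3.10.9 under Python 3.11.15. The text names all 10 genes, other listed genes if a group mean reached 1 TPM (26 of 38), a few lower ones (receptors, PLG, ANXA8L1 and ANXA2P2) chosen after their values were seen, and the 5 genes most correlated with S100A10 and with ANXA2. Members and lists were chosen with earlier results of these data known. When tested on simulated data (200 genes set to a log2 change of 2), the median recovered was 1.99 over 11800 genes for HCT-116 and 1.98 over 12538 for HepG2. The changed genes had no simulated cell at 0, and all genes had the same relative spread. Recovery was therefore not tested for genes at 0 in most cells, such as S100A4 and ANXA1 in HepG2. Alternatives were other scalings, filters, folds, pseudocounts, detection limits and pairing of cells on total reads.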

Additional observations from a re-analysis of the deposited data

Results flagged for a closer look

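ANXA11, a widely expressed annexin that binds PDCD6, had a log2 ratio of fixed to live cells of -0.18 in HCT-116 and 0.19 in HepG2, so that its means moved in opposite directions in the lines. Live HCT-116 cells had a mean of 71.9 TPM and fixed ones 63.4 TPM, beside 37.1 TPM (live) and 42.2 TPM (fixed) for HepG2. With cells scaled by the median ratio the log2 ratios were -0.33 and 0.01, and with ribosomal RNA left out -0.50 and 0.01. The difference between the lines was not tested, since each group is 1 sample.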

How the results depend on the processing

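The 2-fold counts between the lines stayed within 1.5 times of 8 under every alternative run, and no called direction reversed. The fixed-to-live count of HCT-116 (0 of 9) was 2 at 1.5-fold and 1 with no filter on low values. That of HepG2 (3 of 10) was 8 at 1.5-fold, 1 at 3-fold, 1 with genes of at least 10 TPM only, 1 with cells paired on total reads and 1 as a mean of log2(TPM + 1), the last being S100P, which is not one of the 3. The correlation of S100A10 and ANXA2 in live HCT-116 cells was 0.14 as Spearman's and 0.20 without the cell at 0, and in fixed HepG2 cells 0.55 with cells paired on total reads. The cause of these changes was not tested, beyond the construction of the stricter and looser limits. Leaving out the very similar or equal cells, and cells at 0, was chosen after seeing the data. No paired analysis was possible because the numbers in the labels only name cells, those in the columns do not match them, and the results come from no test. No replicate could be left out, with 1 sample in each group. Depth limits the low genes: S100P rests on 2 and 11 estimated reads in live and fixed HCT-116 cells, and S100A4 on 180 and 473 in HepG2.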
